A study of Homo sapiens with 6 samples.

Results

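Canonical C/D box small nucleolar RNAs (snoRNAs) encoded outside the imprinted clusters at 14q32 and 15q11 were examined in AC16 cells, an established human line described as adult ventricular cardiomyocytes. An array row was taken as a member where its only gene symbol began with SNORD and a digit, and SNORD64, SNORD107, SNORD108, SNORD109A, SNORD109B and SNORD112 to SNORD116 were left out because they lie in the imprinted clusters. This gave 98 of the 70523 rows on the array. They carried 83 symbols and 85 distinct sets of values, because SNORD117 had 8 identical rows, SNORD32B had 7 rows with 2 distinct sets of values, and SNORD3B-1 and SNORD3B-2 shared 1 set. A further 48 rows joined a canonical C/D symbol with other symbols and fell outside the rule. These rows carried 77 canonical C/D symbols, of which 67 had no row of their own, so most C/D snoRNAs of the GAS5 and SNHG1 genes were not analysed here.

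Total RNA was measured on 6 Affymetrix arrays. The hypothermia group was cells kept at 28 °C for 6 h (n = 3), and the control group was cells kept at 37 °C for 6 h (n = 3). Both were the same line in the same medium with 5% CO2, and the labels name no other agent. AC16 is known as a fusion of ventricular cells with transformed human fibroblasts, which limits it as a model of heart muscle. No source states that replicates came from separate cultures, and each p-value therefore covers only the variation among these 6 samples, some or all of which may be technical. All signals are log2 values as the authors deposited them, and every difference is 28 °C minus 37 °C. Each row was tested with limma at a threshold of 0.05 on the Benjamini-Hochberg adjusted p, with all 70523 rows in the adjustment.

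C/D snoRNAs are short nucleolar RNAs that bind fibrillarin, NOP56, NOP58 and SNU13 and guide 2′-O-methylation of ribosomal RNA or of the U6 spliceosomal RNA at a site that pairs with them. A few, such as U3 and U14, act instead or as well in processing the ribosomal RNA precursor, and U13 guides acetylation of ribosomal RNA. Most human C/D snoRNAs have no promoter of their own. They are cut from the introns of host genes, many of which encode ribosomal proteins, translation factors or nucleolar proteins, or are noncoding small nucleolar RNA host genes (SNHG).

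All 83 symbols were found in a RefSeq table of the assembly GRCh38.p14, and 76 of them lay inside another gene, in 52 host genes. The 7 outside other genes were SNORD3A, SNORD3B-1, SNORD3B-2, SNORD3C and SNORD3D, which are copies of U3, SNORD13, which is U13, and SNORD32B. The table gives no strand, so a snoRNA inside a gene may lie on the other strand. The RefSeq sequence tables used here hold none of these snoRNAs, so the starts of their host genes are shown instead. Host genes of snoRNAs are known for a 5′ terminal oligopyrimidine tract, a C at the transcription start followed by pyrimidines only. The motif searched was a C at the annotated start followed by at least 4 bases that are C or T, on the transcribed strand only. It stood at 11 of the 55 annotated starts (20.0%) found for 41 of the 52 host genes, against 1429 of 35116 starts (4.07%) in the whole RefSeq table. The 6 starts below belong to hosts of the C/D snoRNAs described first and of 1 ribosomal protein host. Each holds the 15 bases before and the 15 bases from the start, 5′ to 3′, and capitals mark the tract from the start on.
SNHG26 (host of SNORD93, chr7:22854225-22854254, plus strand): ccttttaaacttgatctccgcagtgccctc
HSPA8 (host of SNORD14D and SNORD14E, chr11:123062122-123062151, minus strand): cgggcggaaaccggtctcattgaactcgcc
AP1G1 (host of SNORD71, chr16:71808820-71808849, minus strand): gggagccgccattttggatgttcggttcct
SNHG18 (host of SNORD123, chr5:9546185-9546214, plus strand): ccgccgccgcgccgcCTCCTCCTCCTCCTC
SNX5 (host of SNORD17, chr20:17968780-17968809, minus strand): gcaccgaaacgcggtCTTTCTCTagacgcg
RPS3 (host of SNORD15A and SNORD15B, chr11:75399503-75399532, plus strand): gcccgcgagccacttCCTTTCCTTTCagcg
The hosts of the 3 C/D snoRNAs with the largest decreases, SNHG26, HSPA8 and AP1G1, have no match at the starts in the table. SNHG26 begins with 4 pyrimidines, a tract too short for the motif. A match is a description of these letters only. Of the C/D snoRNA rows whose host begins with the tract, 13 of 15 had a lower measured mean at 28 °C, with a median log2 difference of -0.13. Of those whose host has starts in the table but none with the tract, 37 of 45 had a lower measured mean, with a median of -0.12. These include hosts such as RPL3, which begins with 4 pyrimidines, and RPL17, whose annotated start lies some bases after a pyrimidine run. The split therefore depends on the exact annotated start and may misplace hosts.

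SNORD93 was the only C/D snoRNA that passed the threshold, and it fell at 28 °C. It is a guide for 18S rRNA methylation and lies in the noncoding gene SNHG26 (GRCh38.p14, chr7:22856613-22856686). Its log2 signal was 6.81, 6.61 and 6.72 on the hypothermia arrays, against 7.46, 7.71 and 7.43 on the control arrays. Every hypothermia array lay below every control array, and the gap between the groups was wider than the range within either. The log2 difference was -0.82 ± 0.0941 (SE, n = 3 per group, limma adjusted p = 0.0105), a 1.77-fold decrease. Over all rows 0.591 percent were called lower and 0.227 percent higher by the same rule, and among the 98 C/D snoRNA rows 1 was called lower and 0 higher. At an unadjusted limma p under 0.05, 18 of the 85 distinct rows were lower (21.2%, against 5.96 percent of all distinct rows). At the same p 9 were higher (10.6%, against 5.41 percent), of which 4 were near-identical U3 copies. Without hypothermia replicate 2 or control replicate 1, SNORD93 missed the threshold at limma adjusted p values of 0.0507 and 0.0510. SNHG26 has no row with a single symbol, so the host was not measured here.

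Below the threshold, the lower rows were led by a U14 copy and a 5.8S rRNA guide. SNORD14E, 1 of several copies of U14, which takes part in 18S rRNA processing, had log2 signals of 4.29, 4.24 and 4.21 at 28 °C and 4.95, 5.06 and 4.62 at 37 °C. Its groups did not overlap, and the 3 hypothermia arrays lay closer together than the 3 control arrays. The log2 difference was -0.63 ± 0.111 (SE, n = 3 per group, limma adjusted p = 0.0545). SNORD71, a 5.8S rRNA guide inside the adaptor protein gene AP1G1, had log2 signals of 9.11, 8.89 and 9.14 at 28 °C and 9.41, 9.61 and 9.47 at 37 °C. Again every hypothermia array was the lower one. The log2 difference was -0.45 ± 0.0896 (SE, n = 3 per group, limma adjusted p = 0.0816).

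**Figure D1:**
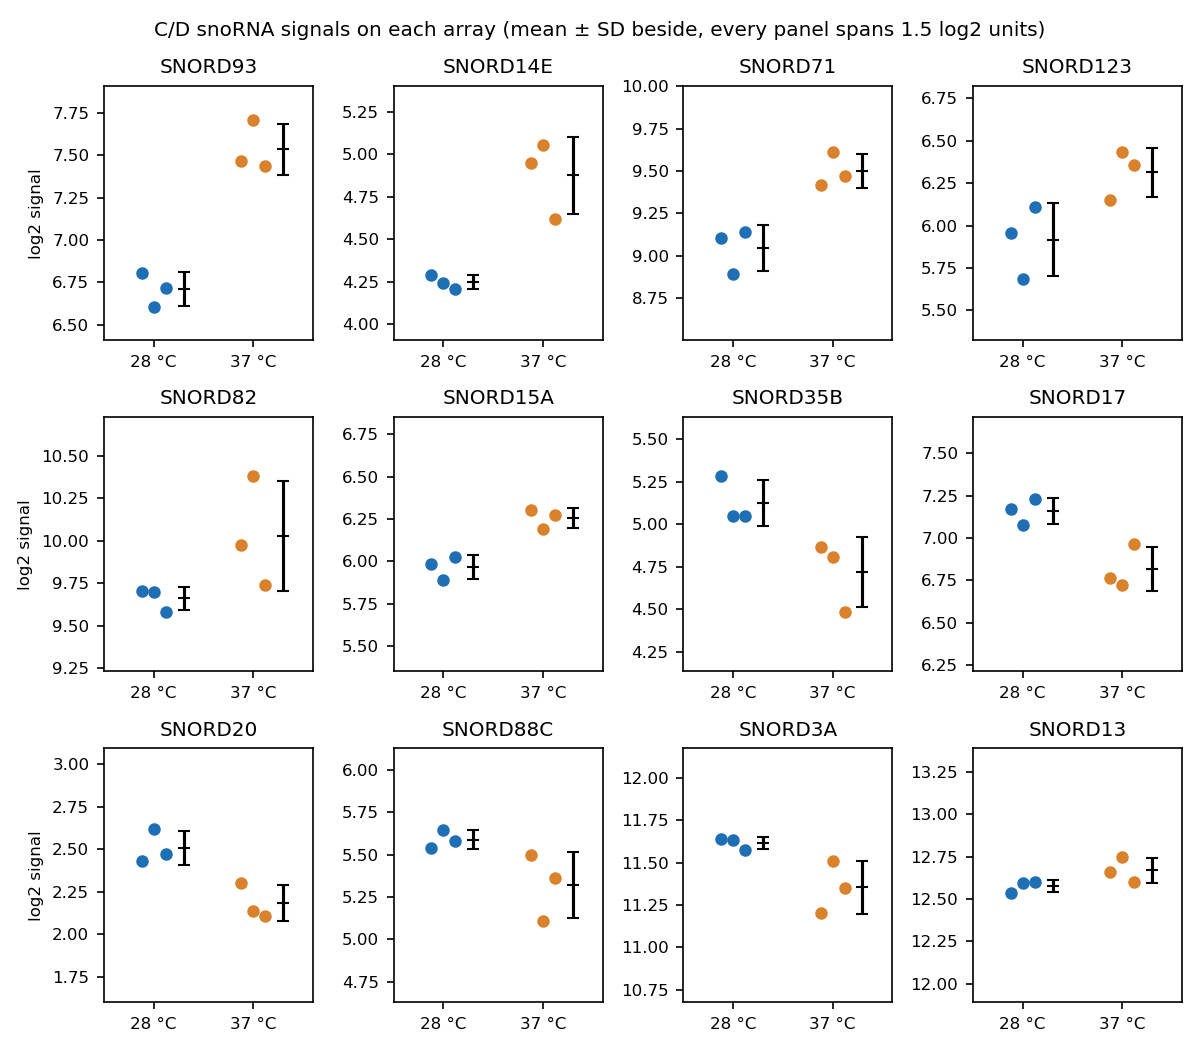
Log2 signal on each array for 12 C/D snoRNAs, with the 28 °C arrays in blue at the left and the 37 °C arrays in orange at the right of each panel, and black bars at the mean ± SD of 3 arrays. Each panel spans the same 1.5 log2 units, and SNORD93 shows the widest gap, with 6.61 to 6.81 at 28 °C against 7.43 to 7.71 at 37 °C.

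Among the other 7 of the 10 largest decreases with no overlap between groups, log2 differences ran from -0.40 to -0.28 and none passed the threshold. SNORD123, in the noncoding gene SNHG18, had log2 signals of 5.96, 5.69 and 6.11 at 28 °C and 6.15, 6.43 and 6.36 at 37 °C (difference -0.40 ± 0.121, SE, limma adjusted p = 0.254). Its highest hypothermia array lay just under its lowest control array. SNORD82, in the gene of the nucleolar protein nucleolin (NCL), had 9.70, 9.70 and 9.58 at 28 °C and 9.97, 10.38 and 9.74 at 37 °C (difference -0.37 ± 0.148, SE, limma adjusted p = 0.396). Here control replicate 2 stood well above the other control arrays, and leaving out each array in turn moved the difference between -0.52 and -0.19. SNORD15A, a 28S rRNA guide in the ribosomal protein gene RPS3, had 5.98, 5.89 and 6.03 at 28 °C and 6.30, 6.19 and 6.27 at 37 °C (difference -0.29 ± 0.0683, SE, limma adjusted p = 0.139). Its 2 groups were tight and separate. The others were SNORD111B in the splicing factor gene SF3B3 at -0.35, SNORD70, an 18S rRNA guide in NOP58, at -0.33, SNORD90 in RC3H2 at -0.30 and SNORD8, a U6 guide in CHD8, at -0.28. With single arrays left out, SNORD70 ran from -0.43 to -0.13, SNORD111B from -0.46 to -0.21, SNORD90 from -0.40 to -0.20 and SNORD8 from -0.37 to -0.18.

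The higher rows were fewer, and none passed the threshold. SNORD35B had the largest positive difference, with log2 signals of 5.28, 5.05 and 5.05 at 28 °C and 4.87, 4.81 and 4.48 at 37 °C (difference 0.41 ± 0.117, SE, limma adjusted p = 0.221). SNORD17, a long C/D snoRNA that guides 28S rRNA methylation and lies in the sorting nexin gene SNX5, had 7.17, 7.08 and 7.23 at 28 °C and 6.76, 6.73 and 6.96 at 37 °C (difference 0.34 ± 0.0842, SE, limma adjusted p = 0.153). In both, every hypothermia array was above every control array. SNORD20, an 18S rRNA guide in NCL, also had separate groups, with 2.43, 2.62 and 2.47 at 28 °C and 2.30, 2.14 and 2.10 at 37 °C (difference 0.33 ± 0.0827, SE, limma adjusted p = 0.166). Its mean lay under 2.55, the median of the 23 features that the array carries for background, so it is hard to tell from background, as are 7 other distinct rows with a mean under that level. SNORD88C and SNORD88B, in the transcribed pseudogene C19orf48P, differed by 0.27 and 0.14, with no overlap between groups.

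Taken over all 85 distinct rows, the measured mean was lower at 28 °C for 63 (74.1%) and higher for 22, against a lower mean for 40.1 percent of all distinct rows. The groups did not overlap in 21 lower rows (24.7%, against 8.42 percent of all distinct rows) and in 9 higher rows (10.6%, against 9.45 percent). Of these 9 higher rows, 4 were U3 copies, which may read the same RNA. The median log2 difference of the 85 rows was -0.09, against 0.03 over all distinct rows, so the typical difference was small beside that of SNORD93. C/D snoRNA rows were also brighter than most of the array. Among rows at or above the median signal of all rows, 20 of the 80 C/D snoRNA rows were lower with no overlap (25%), against 13.8% of all such rows. On the higher side the shares were 11.2% and 11.7%. These 80 rows include repeats and hold 67 distinct sets of values. They were still brighter than the rows beside them, with a median signal of 7.22 against 5.36. In bulk samples, fewer cells of a kind and less RNA per cell cannot be told apart.

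**Figure D2:**
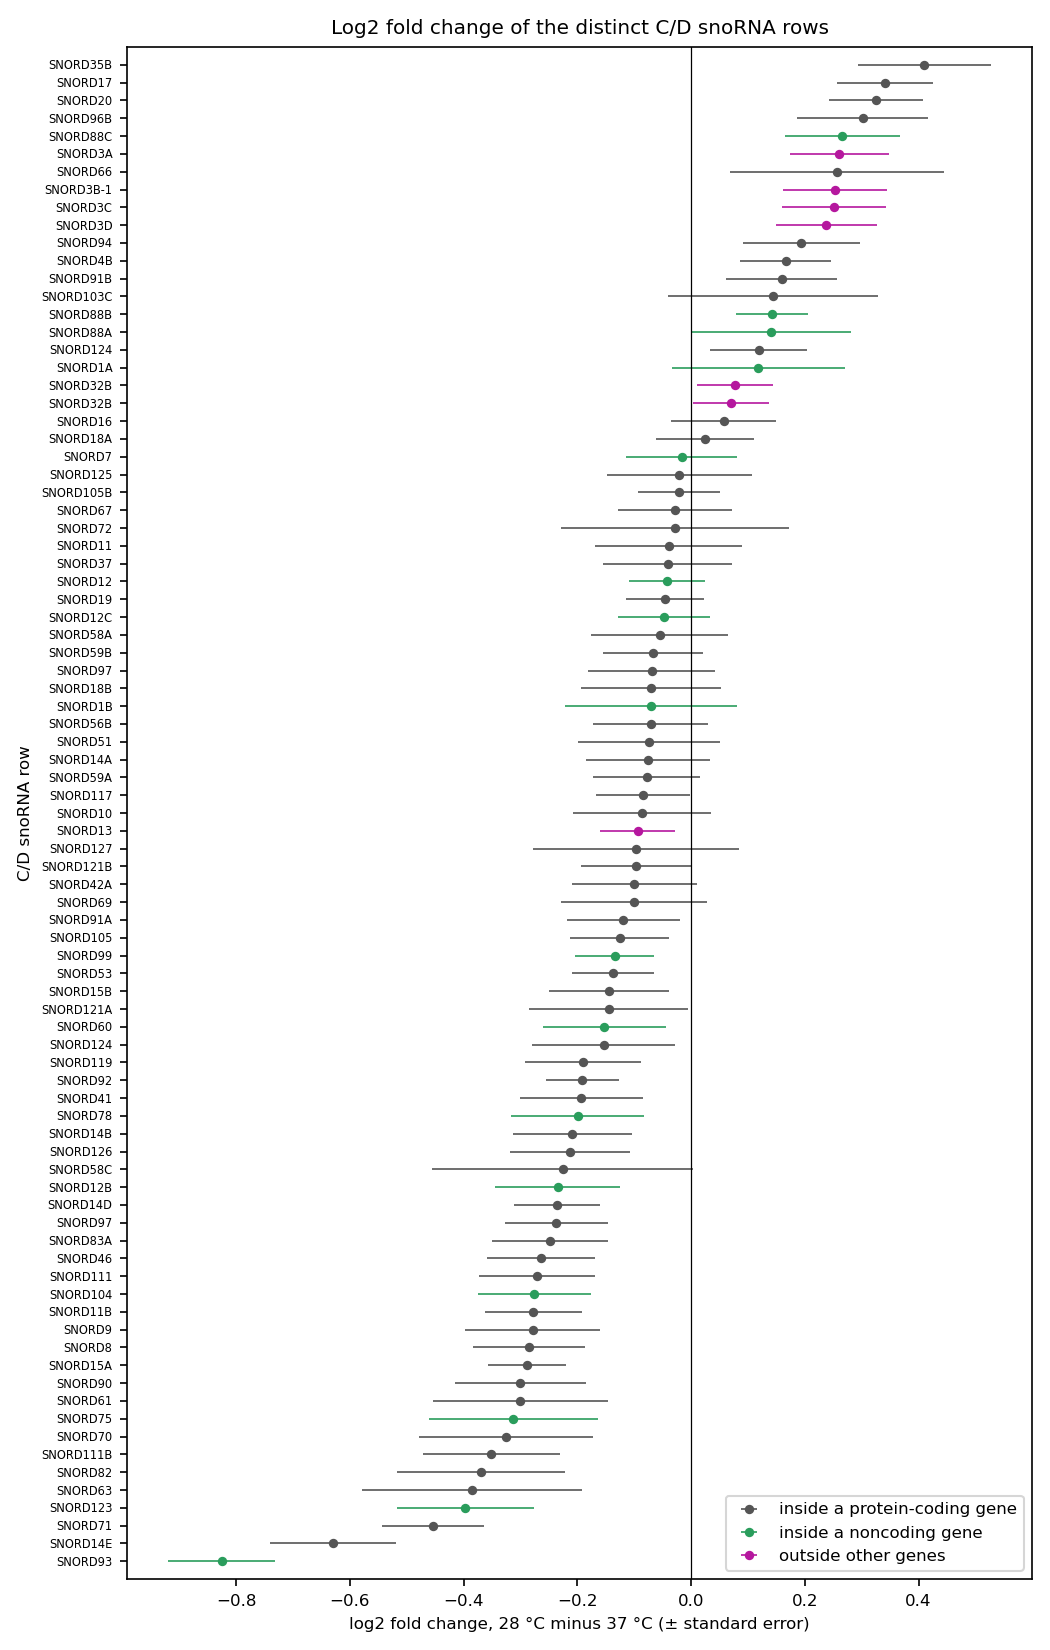
Log2 difference (28 °C minus 37 °C, ± SE from limma, 3 arrays per group) of the 85 distinct C/D snoRNA rows in order of size, coloured by where the snoRNA lies, with separate rows of 1 symbol shown apart. 63 rows lie left of 0, and the U3 copies outside other genes stand among the 22 at the right.

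The shift rested in part on single arrays. Control replicate 2 had the highest signal of the 6 arrays in 42 of the 85 distinct rows, and hypothermia replicate 2 had the lowest in 26. The median deviation of the C/D snoRNA rows from their own mean was -0.03, -0.10 and -0.02 on hypothermia replicates 1, 2 and 3, against 0.04, 0.13 and -0.02 on control replicates 1, 2 and 3. Hypothermia replicate 3 and control replicate 3 were thus at about the same level. The count of rows with a lower mean was 52 of 85 without control replicate 2 and 55 without hypothermia replicate 2, and 60 to 64 without any other array, while 37.4 to 45.8 percent of all distinct rows had a lower mean in these sets. Counts of rows without overlap can only stay or rise when an array is left out. Lower rows without overlap numbered 22 to 33 in these sets, against 21 with all arrays. The share over all distinct rows was 10.9 to 13.9 percent, against 8.42 percent with all arrays. Higher rows without overlap numbered 10 to 13, against 9, with shares over all distinct rows of 12.9 to 25.5 percent, against 9.45 percent. The brighter background features differed between arrays as well. They averaged 6.40, 6.39 and 6.49 on the hypothermia arrays and 6.20, 6.10 and 6.47 on the control arrays. The groups overlapped, as control replicate 3 lay above hypothermia replicates 1 and 2. The hypothermia mean was the higher one, opposite in direction to most C/D snoRNA rows. With the average of these features on each array as a covariate, SNORD93 differed by -0.73 and missed the threshold (limma adjusted p = 0.0811).

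**Figure D3:**
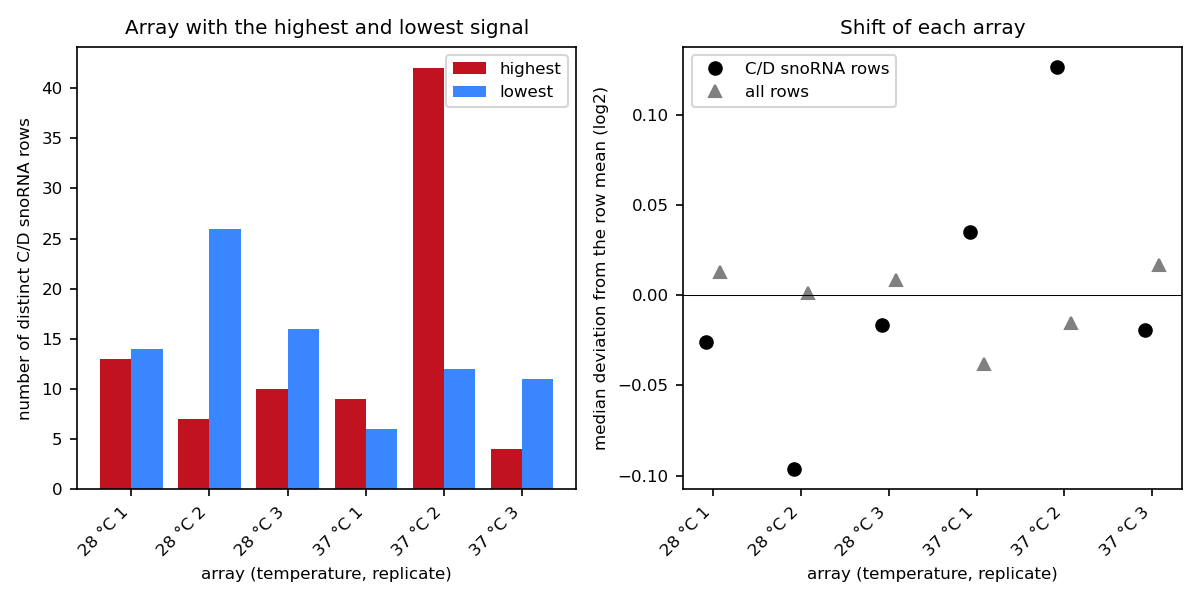
Left, the number of the 85 distinct C/D snoRNA rows in which each array gave the highest (red) or lowest (blue) of the 6 signals, and right, the median deviation from the row mean on each array (log2) for the C/D snoRNA rows (circles) and for all rows (triangles). Control replicate 2 was highest in 42 rows and hypothermia replicate 2 lowest in 26.

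Of the snoRNAs that act in pre-rRNA processing, the U3 copies and the U14 copies lay on opposite sides of 0. U3 is needed for the early cleavages that release 18S rRNA. SNORD3A had log2 signals of 11.64, 11.63 and 11.57 at 28 °C and 11.20, 11.51 and 11.35 at 37 °C, with a difference of 0.26 ± 0.0871 (SE, n = 3 per group, limma adjusted p = 0.300). The hypothermia arrays were close together and all above the control arrays. SNORD3B-1, SNORD3C and SNORD3D differed by 0.25, 0.25 and 0.24, also with no overlap. These copies are near-identical, so their probes may read the same RNA and they count as a single observation at most. Of the U14 copies, SNORD14E and SNORD14D in HSPA8, the gene of a constitutive HSP70 chaperone, differed by -0.63 and -0.24 with no overlap, and SNORD14B and SNORD14A in RPS13 by -0.21 and -0.08 with overlap. SNORD13 (U13), which guides acetylation of 18S rRNA, was the brightest C/D row, with 12.53, 12.59 and 12.60 at 28 °C and 12.66, 12.75 and 12.60 at 37 °C. Its groups were separated by less than the range within either, and the difference was -0.09 ± 0.0662 (SE, 95% interval -0.25 to 0.06, limma adjusted p = 0.630).

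The roles listed here are not complete. Among the distinct rows listed as guides for 18S rRNA, 10 of 14 had a lower measured mean, with a median difference of -0.07 and SNORD93 as the only call. Among those listed as guides for 28S rRNA, 15 of 19 had a lower mean, with a median of -0.13. They had 0 calls by limma (3 lower and 1 higher at an unadjusted p under 0.05). SNORD46, a 28S rRNA guide and among the 5 brightest rows, had log2 signals of 11.08, 10.91 and 11.16 at 28 °C and 11.17, 11.44 and 11.33 at 37 °C (difference -0.26 ± 0.0943, SE, limma adjusted p = 0.334). Its highest hypothermia array fell just short of its lowest control array. The 34 rows with no role listed here had a median of -0.08, with 25 lower and 9 higher. They may hold further guides, and they include the largest increase, SNORD35B at 0.41. The 3 orphan rows, which have no known rRNA or snRNA target, had lower means with a median of -0.24. They were SNORD83A at -0.25 and 2 rows of SNORD97 at -0.24 and -0.07, the last with a mean under the median background feature.

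The 5 rows listed here as U6 guides did not share a direction. SNORD8 had log2 signals of 8.03, 7.66 and 7.92 at 28 °C and 8.17, 8.17 and 8.14 at 37 °C (difference -0.28, limma adjusted p = 0.314). SNORD9, from the same host gene CHD8, had a difference of -0.28 (limma adjusted p = 0.426), and its groups overlapped. SNORD94, in the mitochondrial translation gene PTCD3, differed by 0.19 (limma adjusted p = 0.523) with overlap. SNORD67 and SNORD7 differed by -0.03 and -0.02, values whose sign changed when single arrays were left out.

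By location, 50 of the 62 distinct rows inside protein-coding genes had a lower mean (median -0.10), as did 12 of the 13 inside noncoding host genes (median -0.15). The 3 rows inside the transcribed pseudogene C19orf48P all had a higher mean (median 0.14). Of the 7 rows outside other genes, 6 had a higher mean (median 0.24), of which 4 were the U3 copies. These copies count as a single observation at most, and the median is that of SNORD3D, a U3 copy. The others with a higher mean were 2 rows of SNORD32B, at 0.07 and 0.08 with overlap. The 21 rows inside ribosomal protein or translation factor genes had a median of -0.07, with 16 lower. No test of these groups against each other was made.

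Host gene and snoRNA were compared where the host had a row with a single symbol, which was so for 26 of the 52 hosts and 37 distinct snoRNA rows. Only 1 host passed the threshold. RC3H2, which encodes the RNA-binding protein roquin-2 and holds SNORD90, had log2 signals of 6.60, 6.53 and 6.51 at 28 °C and 7.26, 7.31 and 7.01 at 37 °C (difference -0.65 ± 0.0890, SE, limma adjusted p = 0.0226). It kept that call in 9 of 16 alternatives and lost it in 5 of the 6 that left out an array. SNORD90 had 3.93, 3.68 and 3.60 at 28 °C and 3.94, 4.23 and 3.94 at 37 °C (difference -0.30, limma adjusted p = 0.373). Over the 37 pairs, which share the 6 arrays and in part the same host, differences had a Pearson correlation of 0.16 and a Spearman correlation of 0.14. The sign was the same in 24 pairs. Most of the paired snoRNA rows and 19 of the 26 hosts had a lower mean, so a shared sign is common for that reason alone.

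CHD8 and its 2 guides lay together, at -0.31 for the host (limma adjusted p = 0.250) and -0.28 for both SNORD8 and SNORD9. In contrast, NCL itself differed by -0.03 while SNORD82 differed by -0.37 and the dim SNORD20 by 0.33, a spread of 0.70 and the widest among the 22 hosts with more than 1 distinct row. SNX5 differed by -0.16 while SNORD17 differed by 0.34, and PTCD3 by -0.25 while SNORD94 differed by 0.19. In ATP5F1B, which encodes a subunit of ATP synthase, SNORD59A and SNORD59B differed by -0.08 and -0.07. Probe positions were not used here, so signal of the mature snoRNA and signal of the intron around it cannot be told apart.

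**Figure D4:**
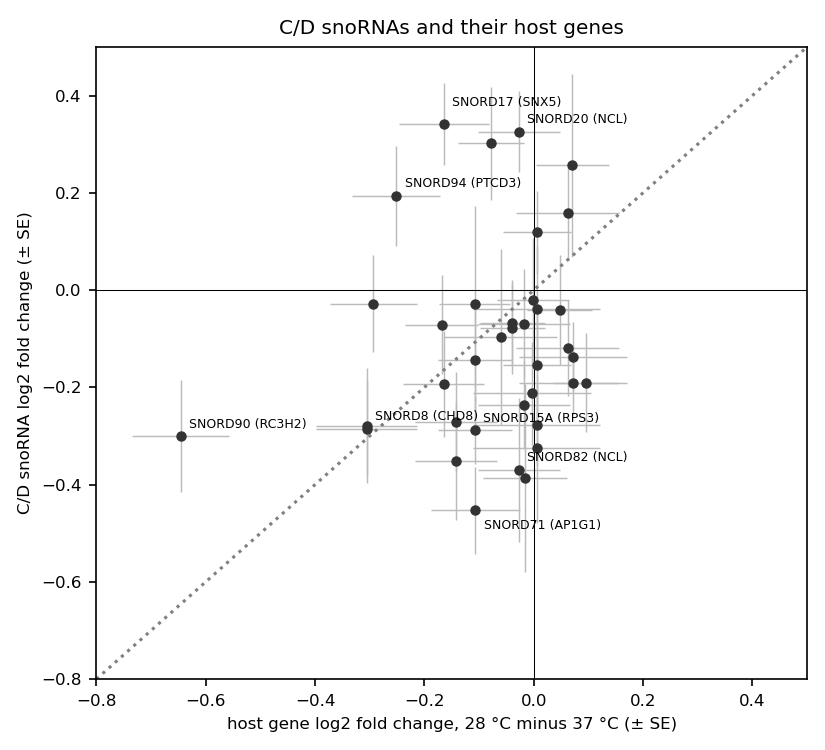
Log2 difference (28 °C minus 37 °C) of 37 distinct C/D snoRNA rows, vertical, against that of the gene each lies in, horizontal, with bars of ± SE from limma (3 arrays per group) and a dotted line of equal difference. RC3H2 at -0.65 stands apart on the host axis, and SNORD17 and SNORD20 lie above 0 while SNX5 and NCL lie below it.

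Set beside the other snoRNA classes on the same arrays, the canonical C/D rows held fewer calls than the H/ACA snoRNAs, which guide pseudouridylation. The C/D rows had differences from -0.82 to 0.41, and the 71 H/ACA rows from -0.92 to 0.79, with a median of -0.03. Of the H/ACA rows 3 were called higher and 3 lower, against 0.227 and 0.591 percent of all rows. At an unadjusted p under 0.05, 18 of the 98 C/D rows were lower and 10 higher, against 18 and 12 of the 71 H/ACA rows. Over all rows 6.08 percent were lower and 5.41 percent higher at that p. On the lower side the groups did not overlap in 21.4% of the C/D rows and 28.2% of the H/ACA rows, against 8.49 percent of all rows. On the higher side the shares were 10.2% of the C/D rows, 19.7% of the H/ACA rows and 9.38 percent of all rows. The 40 C/D rows at 14q32 and the 50 at 15q11 had 0 calls by limma (3 higher and 1 lower at 14q32, and 0 higher and 3 lower at 15q11, at an unadjusted p under 0.05). Their medians were 0.00053 and 0.0028. The median signal was 6.40 in the canonical C/D rows, 3.91 at 14q32 and 2.02 at 15q11, and that of the 15q11 rows lay under the median background feature. The difference between classes was not tested.

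**Figure D5:**
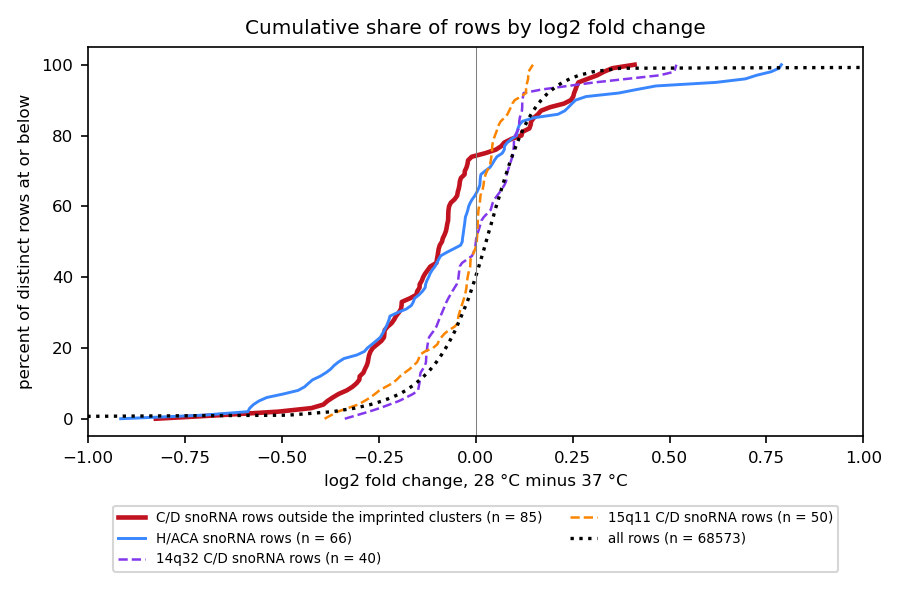
Percent of distinct rows at or below each log2 difference (28 °C minus 37 °C) for the 85 canonical C/D snoRNA rows, 66 H/ACA rows, 40 rows at 14q32, 50 rows at 15q11 and all 68573 distinct rows. The C/D line reaches 74.1% at 0, where the line of all rows stands at 40.1%.

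The core proteins of C/D snoRNAs showed small differences where they were measured, while some proteins of the U3 processome and of snoRNA trimming differed more. Of the 4 core proteins, fibrillarin (FBL, the methyltransferase), NOP58 and SNU13 had a row with a single symbol and differed by -0.01, 0.01 and -0.02. None of the 10 assembly factors passed the threshold (median -0.03). Of the 23 proteins of the U3 processome, 1 was called lower and 0 higher, with a median of -0.15, and 10 were lower and 1 higher at an unadjusted p under 0.05. Over all rows, 0.591 percent were called lower and 0.227 percent higher, and 5.96 percent and 5.41 percent of all distinct rows were lower and higher at the unadjusted p. The called gene was WDR3, with log2 signals of 6.97, 6.90 and 6.91 at 28 °C and 7.37, 7.60 and 7.33 at 37 °C (difference -0.50 ± 0.0843, SE, limma adjusted p = 0.0463). It kept the call in 6 of 16 alternatives. WDR75 and HEATR1 differed by -0.58 and -0.47, and RCL1 by 0.25, none past the threshold. All 8 genes for intron debranching and snoRNA trimming had a lower mean, against 40.1 percent of all distinct rows, and none passed the threshold. At the unadjusted p 2 of them were lower and 0 higher. In each of them control replicate 2 gave the highest signal of all arrays. That array was also the highest for WDR3, WDR75 and HEATR1, though not for RCL1. DBR1 and PARN differed by only -0.01 and -0.02. The exosome subunit EXOSC3 came closest to the threshold at -0.52 (limma adjusted p = 0.0661). Of the 14 noncoding host genes listed, 3 had a row of their own, with SNHG8 at -0.30, EPB41L4A-AS1 at 0.37 and DANCR at -0.04, none past the threshold.

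The label of the line was checked against marker genes. Of 15 cardiomyocyte markers 14 had a row, with mean log2 signals from 2.06 to 9.14. PLN, RYR2 and MEF2C were at 2.03, 2.31 and 2.36 at 28 °C and 2.09, 2.28 and 2.35 at 37 °C, under the median background feature, while NPPB was at 9.12 and 9.15. The other markers with a row lay between these and above that feature. Among them, GATA4 was at 6.88 and 6.73, ACTC1 at 5.55 and 5.51 and NKX2-5 at 4.95 and 4.86. Of 8 mesenchymal markers 7 had a row, with mean log2 signals from 3.34 to 11.1. VIM was at 10.97 at 28 °C and 10.98 at 37 °C, while S100A4 was at 3.30 and 3.39. Of the 7 leukocyte and endothelial markers with a row, CD68 was at 8.62 at 28 °C and 8.49 at 37 °C, and the others ran from PTPRC, with a mean of 2.19 over all arrays, to VWF, at 4.21 at 28 °C and 4.14 at 37 °C. None of the marker genes passed the threshold, and the median differences were 0.08, 0.05 and 0.06 for the cardiomyocyte, mesenchymal and leukocyte or endothelial lists.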

How the data were processed

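Total RNA of AC16 cells was hybridised to 6 arrays, 3 from 28 °C and 3 from 37 °C. From the scans the authors made log2 values by RMA, a method that subtracts background, brings the arrays to a common scale and combines the probes into 1 value per row (version and settings not given in the sources used here). These deposited log2 values were not normalized again. The number of arrays limits the precision, and no 2 arrays held identical values.

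Each of the 70523 rows was fitted by lmFit and eBayes of limma 3.58.1 (R 4.3.3) on the group alone, with Benjamini-Hochberg adjustment over all rows. The fits were tested on simulated data. By the platform's annotation, 23781 rows carry 1 gene symbol, 1543 carry several and 45199 carry none. Host genes are those of a RefSeq GRCh38.p14 table whose span contains the snoRNA. A host or listed gene was read from its row with the highest mean signal. Named rows were the called ones, up to 10 of the largest increases (9 rows qualified) and 10 of the largest decreases with no overlap between groups, the pre-rRNA processing and U6 guide rows, the 5 brightest and up to 4 members of each list, with other rows named for their host. Marker genes were named apart from this rule, to show the range of signals in their lists. Members and lists were chosen with earlier results of these data known.

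Alternatives tried were the random variance model that the methods name, the methods' t-test, a variance trend on intensity with robust estimation, weighting of arrays, blocking on replicate number, leaving out each array, median centring, quantile normalization, removal of rows under percentile 25 or percentile 50 of the mean signal, the brighter background features as a covariate, and counting identical rows or symbols once. The counts over distinct rows without each array, and the alternatives for WDR3 and RC3H2, were added after seeing the data.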

Additional observations from a re-analysis of the deposited data

How the results depend on the processing

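The count of C/D snoRNA rows called higher was 0 under every alternative run. The count called lower, 1 by limma on the deposited values, was 2 with the filter at the 25th percentile (SNORD93 and SNORD14E), 3 with the filter at the 50th percentile (also SNORD71), 3 with array weights (SNORD93, SNORD14E and SNORD15A), 0 with the methods' t-test and 0 with the brighter background as covariate. The filters test fewer rows, and in the other fits the cause was not tested. Leaving out each array gave 0 to 2. No row was called when hypothermia replicate 2 or control replicate 1 was left out, and 2 were called when control replicate 3 was. The methods' t-test called 0 of all 70523 rows after Benjamini-Hochberg. SNORD93 stayed lower in all 16 alternatives (log2 difference -0.88 to -0.73, adjusted p 0.00415 to 0.191) and past the threshold in 12. SNORD14E ran from -0.76 to -0.43 and passed in 4. The median log2 difference of the C/D snoRNA rows was -0.08 as deposited, -0.06 after quantile normalization, -0.12 after centring and -0.12 to -0.02 with an array left out. Differences near 0 turned sign without single arrays, where SNORD7 ran from -0.12 to 0.049, SNORD14A from -0.17 to 0.0047 and SNORD67 from -0.12 to 0.065. The other C/D snoRNA rows that the rule named kept their direction in all alternatives in which they had a value. Rows named for their host alone, such as SNORD59A and SNORD59B, were not rerun.

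The replicate number as a block gave 1 lower row, SNORD93, and 0 higher, with a median of -0.08. Over all rows it called 122 higher and 304 lower, against 160 and 417 without the block. WDR3 lost its call with the block (adjusted p = 0.0861). Same-numbered arrays had correlations of -0.0817, 0.114 and 0.215 between their deviations from the group means over all rows. Over the C/D snoRNA rows alone these were 0.0981, 0.233 and 0.492, while differently numbered arrays ran from -0.355 to 0.191. No label states a pairing, and these values do not settle it. The numbers were therefore not taken to pair the arrays. Not every array correlated best with its own number. Rows at background level, such as SNORD20, limit what can be seen of dim snoRNAs, and had no value under the filters that removed them.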
